A study of Mus musculus with 14 samples.

Results

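The genes described are 9 that endothelial cells use to catch, hold and pass leukocytes or that mark an activated vessel wall: Vcam1, Icam1, Icam2, Selp, Sele, Ackr1, Lrg1, Pecam1 and Vwf. They were chosen by name, with earlier results of these data known. Matching the Ensembl identifiers of the count table to the GENCODE M21 mouse annotation gave 9 of 55536 Ensembl genes. All 9 had at least 10 counts over the 14 libraries and so were among the 38070 genes tested. Hippocampi of 14 mice aged 10 months were sequenced, with 1 library for each mouse, after perfusion with cold PBS to wash blood from the vessels. The 4 MRL mice were B6.MRL-Faslpr/J, which carry the lpr mutation of the death receptor Fas on a C57BL/6 background and develop lupus. The 4 MRL-IRAK4-KD mice carried the same lpr mutation together with a kinase-dead form of IRAK4, the kinase that passes Toll-like receptor and interleukin-1 receptor signals to NF-kappa-B. The 3 C57BL/6 mice carried neither mutation and the 3 mice labelled IRAK4-KD carry, by their label, the kinase-dead IRAK4 alone, although the Fas transcripts of 1 of them were those of lpr mice. Both mutations are in the germline and so are present in every cell, the vessel wall and the blood included. The series asks how the lupus-prone background and IRAK4 kinase activity act on the brain.

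Leukocytes leave the blood in steps. P-selectin (Selp) and E-selectin (Sele) on the endothelial surface slow the passing cell, chemokines presented on the vessel wall activate its integrins, and VCAM-1 (Vcam1) and the ICAMs (Icam1, Icam2) bind those integrins so that it stops. PECAM-1 (Pecam1), at the junctions between endothelial cells, is used as it crosses. P-selectin and von Willebrand factor (Vwf) are stored together in the Weibel-Palade bodies of endothelial cells, and both genes are also used by the platelet lineage. ACKR1 (Ackr1) is an atypical receptor that carries chemokines across venules and is also found on red cells, and LRG1 (Lrg1) is a secreted glycoprotein that rises in activated endothelium and in acute-phase liver. In healthy brain the vessel wall holds little selectin, and cytokines such as TNF and interleukin-1 are known to induce Sele, Selp, Vcam1 and Icam1 there.

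Because these genes are known as cytokine targets, the 250 bases before the RefSeq start were read for the 4 members below (RefSeq, build GRCm38.p6). Of the 9 members 5 had an entry. Capitals mark matches on either strand to GGNNNTTCC, a pattern like that bound by NF-kappa-B, or to TTCNNNGAA, a pattern like that bound by STAT factors. In Sele both patterns lie in the same capitals and share bases.
Sele, chr1:164047984-164048233, plus strand: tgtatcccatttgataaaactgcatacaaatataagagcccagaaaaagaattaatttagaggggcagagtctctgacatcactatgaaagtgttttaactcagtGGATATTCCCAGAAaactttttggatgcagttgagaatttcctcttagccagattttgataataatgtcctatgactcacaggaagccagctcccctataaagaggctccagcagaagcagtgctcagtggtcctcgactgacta
Selp, chr1:164115014-164115263, plus strand: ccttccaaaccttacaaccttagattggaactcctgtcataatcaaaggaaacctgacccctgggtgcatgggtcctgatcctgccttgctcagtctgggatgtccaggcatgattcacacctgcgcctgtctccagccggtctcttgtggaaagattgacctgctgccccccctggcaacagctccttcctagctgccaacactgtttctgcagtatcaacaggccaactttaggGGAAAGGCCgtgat
Icam1, chr9:21015690-21015939, plus strand: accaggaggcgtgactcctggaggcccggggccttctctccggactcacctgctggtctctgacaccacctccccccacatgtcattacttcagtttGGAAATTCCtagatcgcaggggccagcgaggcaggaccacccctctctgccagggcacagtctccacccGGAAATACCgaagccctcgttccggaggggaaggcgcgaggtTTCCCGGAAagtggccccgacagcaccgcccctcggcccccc
Lrg1, chr17:56121947-56122196, minus strand: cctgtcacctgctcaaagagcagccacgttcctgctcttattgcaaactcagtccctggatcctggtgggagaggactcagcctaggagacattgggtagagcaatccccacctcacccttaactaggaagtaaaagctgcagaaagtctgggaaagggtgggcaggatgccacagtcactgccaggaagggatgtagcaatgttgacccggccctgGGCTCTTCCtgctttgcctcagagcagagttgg
The NF-kappa-B-like letters lay 145 to 137 bases before the start in Sele, 14 to 6 in Selp, 33 to 25 in Lrg1, and at 153 to 145 and 84 to 76 in Icam1. The STAT-like letters lay 140 to 132 bases before the start in Sele and 42 to 34 in Icam1. Ackr1, whose sequence is not shown, had an NF-kappa-B-like match 131 to 123 bases before its start. Of 32851 promoters of the same length, 5144 (15.7%) held the NF-kappa-B-like letters and 2306 (7.02%) the STAT-like letters, so a match is a description of the sequence and no sign of binding.

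Total counts were 279941472 to 572398312 in each library, and Irak4 itself had similar mean levels in the 4 groups, from 2.01 to 2.38 CPM (the count scaled to a common library size with the TMM factors), so that the counts do not show the kinase mutation. Hippocampal neuron markers were high in every library, with a summed level of 3792 to 5488 CPM over 10 genes. The library MRL-IRAK4-KD replicate 4 stood apart, with a score of 113 on a first principal component holding 49.4% of the variance while the other libraries lay between -20.1 and 4.68. It also had the lowest library concentration (13.48 nM against 23.49 to 27.55 nM) and the highest summed choroid plexus markers (7824 CPM against 69.6 to 1869.8 CPM elsewhere). The library labelled IRAK4-KD replicate 3 carried the Fas transcripts of the lpr mice, with 0 counts of Fas-201 and 514 of Fas-204, where the C57BL/6 libraries had 345 to 584 of Fas-201 and at most 7 of Fas-204. Comparisons that hold these libraries were refitted without them, and the values that changed most are given beside the results.

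The members covered a wide range of levels. With the counts of each transcript divided by its own length and summed, mean levels in MRL mice ran in the order Ackr1 (28.9 CPM per kb), Vcam1 (10.2), Pecam1 (6.11), Vwf (3.76), Icam2 (1.9), Lrg1 (1.66), Icam1 (1.53), Selp (0.0993) and Sele (0.0649). In C57BL/6 mice the first 5 places were the same, at 29.9, 8.22, 3.66, 1.21 and 0.875 CPM per kb, followed by Icam1 at 0.731, Lrg1 at 0.399, Selp at 0.0406 and Sele at 0.00239 CPM per kb. Divided by the length of all exons of the gene, Lrg1 (1.66 CPM per kb) was above Icam2 (1.22) and Sele (0.0649) above Selp (0.0615) in MRL mice, so these places depend on the length used. The 3 neighbours Icam2, Lrg1 and Icam1 did not differ beyond their spread in MRL mice. The level of Ackr1 shares reads with its neighbour: 361 of its 1405 exon bases (25.7%) overlap exons of Cadm3 on the same strand, a neuronal adhesion gene counted at 318 to 379 CPM, so how much of the Ackr1 count belongs to Ackr1 is uncertain.

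**Figure D1:**
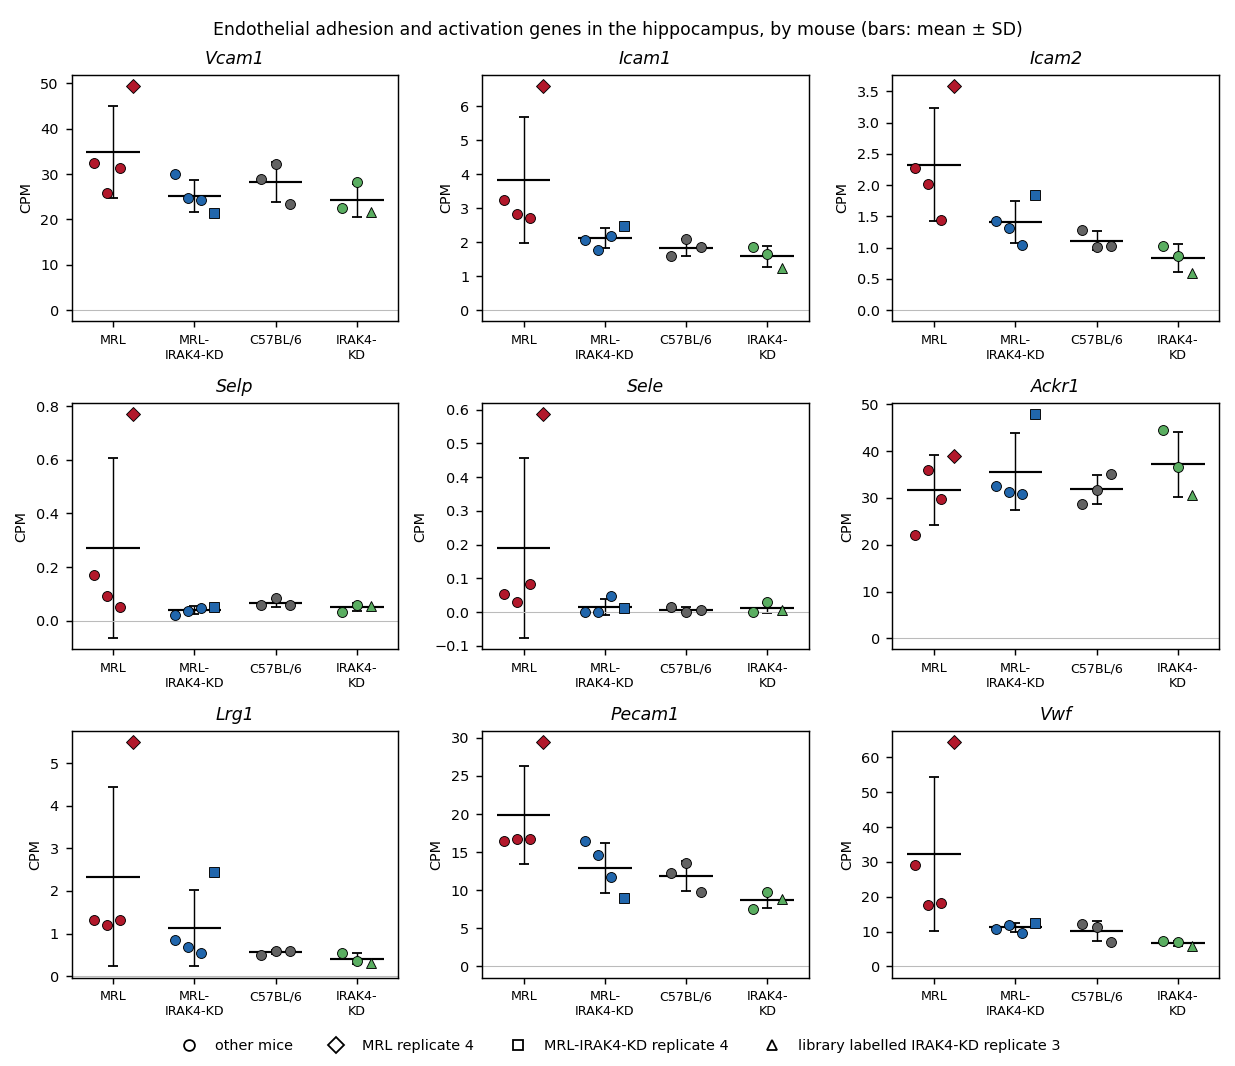
Level of each of the 9 genes in every mouse, in CPM scaled by TMM factors, with 1 panel for each gene and a linear axis. Points are mice, and bars give the group mean and SD, with separate symbols for MRL replicate 4, MRL-IRAK4-KD replicate 4 and the library labelled IRAK4-KD replicate 3; for Selp and Sele in MRL mice the SD is larger than the mean because replicate 4 lies far above the rest (0.771 and 0.587 CPM).

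The first comparison, MRL against MRL-IRAK4-KD, asks what the kinase-dead IRAK4 changed in lupus-prone mice. Mean levels of 8 of the 9 members were higher in MRL mice, from 1.39-fold for Vcam1 to 12-fold for Sele, and only Ackr1 was not. By edgeR's quasi-likelihood test 7 of the 9 passed an unadjusted p of 0.05, all higher in MRL (Vwf, Selp, Icam1, Pecam1, Icam2, Vcam1 and Sele), beside 5.14% of all genes tested in that direction and 11.4% in either. None passed after Benjamini-Hochberg adjustment over all 38070 genes, where 37 genes (0.0972%) did. DESeq2 called 2 members at an adjusted p below 0.05, Vwf (adjusted p = 0.00307) and Selp (adjusted p = 0.0137), among 395 genes. With quality weights for each library, limma-voom called 0 members among 213 genes. By either tool 8 of 9 were higher in MRL at an unadjusted p below 0.05. The share of all genes was 5.43% by DESeq2 and 8.4% by limma-voom. Without MRL-IRAK4-KD replicate 4, edgeR gave 7 of 9 members (5.2% of all genes), with Lrg1 in and Vcam1 out. The levels of MRL and MRL-IRAK4-KD mice did not overlap for 4 members (Vwf, Selp, Icam1 and Pecam1), beside 3.13% of all genes with MRL wholly above. The members and the gene lists below were chosen with earlier results of these data known. Counts set beside a share of all genes, here and below, are therefore a description and no test.

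Vwf (ENSMUSG00000001930.17, chromosome 6, 125546774 to 125686679, plus strand of mm10), which encodes the multimer that tethers platelets to a damaged wall, separated the groups with the smallest p. The 4 MRL mice had 29.0, 17.6, 18.1 and 64.4 CPM, the 4 MRL-IRAK4-KD mice 10.7, 11.9, 9.63 and 12.6, the 3 C57BL/6 mice 12.1, 11.3 and 6.97, and the 3 IRAK4-KD mice 7.20, 6.96 and 5.83. Every MRL mouse was above every mouse of the other 3 groups, whose highest value was 12.6 CPM. The fitted difference from MRL-IRAK4-KD was 1.52 on the log2 scale (SE 0.34, 95% interval 0.78 to 2.27), a 2.88-fold higher level, with adjusted p = 0.247 by edgeR.

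Selp (ENSMUSG00000026580.16, chromosome 1, 164115264 to 164150026, plus strand), stored in the same granules as Vwf, was a low gene with few counts. MRL mice had 79, 52, 25 and 369 counts, or 0.170, 0.0910, 0.0528 and 0.771 CPM, and MRL-IRAK4-KD mice had 10, 13, 21 and 16 counts, or 0.0206, 0.0365, 0.0482 and 0.0515 CPM. The lowest MRL mouse lay just above the highest MRL-IRAK4-KD mouse, and MRL replicate 4 was 4.54 times the next MRL mouse. The fitted difference was 2.79 (log2, SE 0.72, adjusted p = 0.335, edgeR), or 6.91-fold. C57BL/6 mice, at 0.0568, 0.0835 and 0.0590 CPM, and IRAK4-KD mice, at 0.0322, 0.0600 and 0.0559 CPM, overlapped with the lower MRL mice.

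Sele (ENSMUSG00000026582.6, chromosome 1, 164048234 to 164057677, plus strand) is the selectin that endothelium makes mainly when cytokines switch the gene on. Counts were 25, 17, 40 and 281 in MRL mice, against 0, 0, 21 and 4 in MRL-IRAK4-KD, 5, 0 and 3 in C57BL/6, and 0, 12 and 4 in IRAK4-KD mice. All 4 MRL mice had at least 17 counts while only 1 of the other 10 mice did, and 4 of those 10 had none. If each count were 1 read, a count of 0 would allow up to 3 counts, for counting error only. That is 0.00619 to 0.0104 CPM in these 4 libraries. They had 1.85 to 1.99 counts for each read on the sequencing sheet, so this bound may be too low. As CPM the MRL values were 0.0537, 0.0298, 0.0845 and 0.587 and the highest MRL-IRAK4-KD value 0.0482, so the groups overlapped. The fitted difference of 3.59 (log2, SE 1.41, 95% interval 0.56 to 6.61, adjusted p = 0.437, edgeR) was correspondingly wide.

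Icam1 (ENSMUSG00000037405.8, chromosome 9, 21015985 to 21028817, plus strand), the ligand of the leukocyte integrins LFA-1 and Mac-1, was at 3.22, 2.82, 2.71 and 6.60 CPM in MRL mice. The MRL-IRAK4-KD mice had 2.07, 1.75, 2.18 and 2.47 CPM, all below the lowest MRL mouse. The difference was 0.86 (log2, SE 0.27, 95% interval 0.29 to 1.43), a 1.81-fold higher level in MRL, with adjusted p = 0.402 by edgeR. C57BL/6 mice, at 1.58, 2.08 and 1.85 CPM, and IRAK4-KD mice, at 1.86, 1.64 and 1.23 CPM, also lay below every MRL mouse. Exons of the unnamed gene Gm47079 on the opposite strand cover 511 of its 4360 exon bases (11.7%), and whether strand was used in counting is not given in the sources used here.

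Vcam1 (ENSMUSG00000027962.14, chromosome 3, 116109949 to 116129688, minus strand), the ligand of the integrin VLA-4, differed less. MRL mice had 32.5, 25.9, 31.4 and 49.5 CPM and MRL-IRAK4-KD mice 30.1, 24.7, 24.2 and 21.5, so that the groups overlapped. The difference was 0.47 (log2, SE 0.18, adjusted p = 0.437, edgeR), or 1.39-fold, and C57BL/6 mice (28.9, 32.2 and 23.5 CPM) and IRAK4-KD mice (22.6, 28.3 and 21.6 CPM) overlapped with both.

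Icam2 (ENSMUSG00000001029.15, chromosome 11, 106377656 to 106388075, minus strand), a ligand of LFA-1 that resting endothelium carries constantly, was at 2.27, 2.01, 1.44 and 3.59 CPM in MRL mice, against 1.43, 1.31, 1.04 and 1.85 CPM with mutated IRAK4. It differed by 0.73 (log2, SE 0.28, adjusted p = 0.437, edgeR), or 1.66-fold, with overlapping groups. The C57BL/6 mice had 1.28, 1.01 and 1.03 CPM and the IRAK4-KD mice 1.03, 0.871 and 0.591 CPM, below every MRL mouse. Pecam1 (ENSMUSG00000020717.19, chromosome 11, 106654217 to 106750628, minus strand) had 16.5, 16.7, 16.8 and 29.4 CPM in MRL mice, against 16.4, 14.6, 11.7 and 9.01 CPM with mutated IRAK4. The groups were separated by a small gap between 16.4 and 16.5 CPM, and the difference was 0.62 (log2, SE 0.22, adjusted p = 0.433, edgeR), or 1.54-fold. C57BL/6 mice had 12.3, 13.6 and 9.71 CPM of Pecam1 and IRAK4-KD mice 7.58, 9.77 and 8.79 CPM, below every MRL mouse.

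Lrg1 (ENSMUSG00000037095.8, chromosome 17, 56119678 to 56122001, minus strand) was set by 1 library in each group. MRL mice had 1.31, 1.21, 1.32 and 5.49 CPM and MRL-IRAK4-KD mice 0.848, 0.674, 0.547 and 2.45 CPM, with replicate 4 of each group well above the other 3. The difference was 1.05 (log2, SE 0.54, adjusted p = 0.446, edgeR). Without MRL-IRAK4-KD replicate 4, the library that stood apart on the first principal component, it was 1.76 (SE 0.50, adjusted p = 0.324), and without MRL replicate 4 it was 0.21. C57BL/6 mice had 0.506, 0.581 and 0.597 CPM and IRAK4-KD mice 0.555, 0.353 and 0.321 CPM.

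Ackr1 (ENSMUSG00000037872.5, chromosome 1, 173331886 to 173333750, minus strand) was at 22.1, 36.0, 29.7 and 39.0 CPM in MRL mice, against 32.5, 31.2, 30.9 and 48.0 CPM with mutated IRAK4. Its difference was -0.17 (log2, SE 0.19, 95% interval -0.57 to 0.23, adjusted p = 0.720, edgeR). C57BL/6 mice, at 28.8, 31.8 and 35.1 CPM, and IRAK4-KD mice, at 44.4, 36.5 and 30.6 CPM, overlapped with both. It was also the member least like the rest: over the 14 libraries its correlation with each of the other 8 members lay between -0.305 and 0.258, while Icam1 and Vwf had an r of 0.933, Icam2 and Vwf 0.930 and Icam2 and Lrg1 0.920 (Pearson's r of log2(CPM + 0.1), a description over libraries that share their groups).

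**Figure D2:**
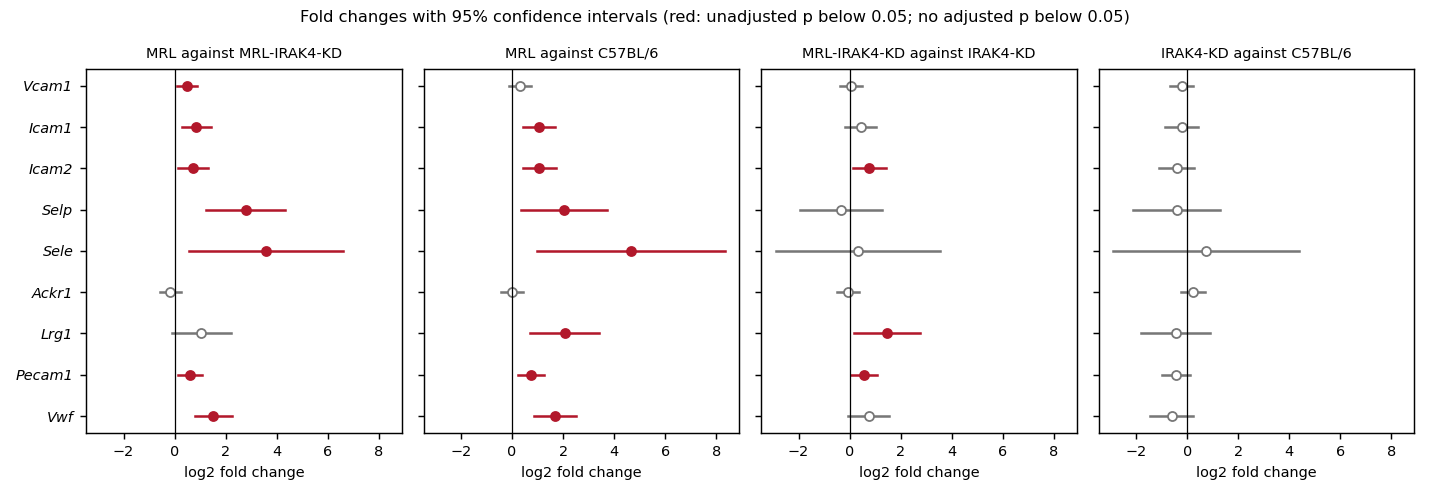
Fitted log2 fold change of each member in the 4 pairwise comparisons, with a 95% interval worked out from edgeR's fold change and F statistic. Red marks an unadjusted p below 0.05. Higher levels in MRL show as points to the right of 0 in MRL against MRL-IRAK4-KD (Vwf 1.52, Selp 2.79, Icam1 0.86), and in IRAK4-KD against C57BL/6 every interval crosses 0.

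MRL replicate 4 was the highest of all 14 mice for 8 of the 9 members, every one but Ackr1. Its level over the next MRL mouse was 6.95 times for Sele, 4.54 for Selp, 4.16 for Lrg1, 2.22 for Vwf, 2.05 for Icam1, 1.75 for Pecam1, 1.58 for Icam2 and 1.52 for Vcam1. Without it 3 of 9 members kept an unadjusted p below 0.05 against MRL-IRAK4-KD, namely Vwf at 0.96 (log2, SE 0.21, adjusted p = 0.330), Selp at 1.44 and Icam1 at 0.48, by edgeR, beside 3.44% of all genes higher in MRL in that fit. The others stood at 1.86 for Sele, 0.46 for Icam2, 0.38 for Pecam1 and 0.27 for Vcam1. The remaining 3 MRL mice had means of 21.6 ± 6.43 CPM for Vwf, 2.92 ± 0.270 for Icam1, 0.105 ± 0.0597 for Selp and 16.7 ± 0.151 for Pecam1 (SD, n = 3).

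Of 20 pan-endothelial genes 15 were higher in MRL than in MRL-IRAK4-KD at an unadjusted p below 0.05 and 0 lower, beside 5.14% and 6.23% of all genes. Their median difference was 0.67 against 0.00 over all genes tested. Slco1a4, a transporter of the blood-brain barrier, passed adjustment (0.88 on the log2 scale, SE 0.15, adjusted p = 0.0434, edgeR), at 44.6 ± 6.92 CPM in MRL against 24.3 ± 4.27 CPM in MRL-IRAK4-KD mice (SD, n = 4 each). That call was at the threshold: it was kept in 3 of the 14 fits that left out 1 library (MRL-IRAK4-KD replicate 2 or 4, or IRAK4-KD replicate 1), with adjusted p = 0.0114 to 0.185 and a difference of 0.78 to 1.01. The receptor Tie1 (0.86) and the TGF-beta co-receptor Eng (0.72) did not (adjusted p = 0.188 and adjusted p = 0.193). The summed level of the 20 genes was 388 ± 83.2 CPM in MRL (334 to 511), 283 ± 38.0 in MRL-IRAK4-KD (235 to 326), 247 ± 16.6 in C57BL/6 (n = 3) and 174 ± 14 in IRAK4-KD mice (n = 3), and MRL replicate 4 had the highest. In whole hippocampus fewer cells of a type and less RNA per cell cannot be told apart. Without MRL replicate 4 the count was 11 of 20, beside 3.44% of all genes higher in MRL in that fit.

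Set against this sum the members differed from each other. Per 1000 CPM of the pan-endothelial genes, Vwf was at 77.7 ± 34.4 in MRL (52.3 to 126), 39.8 ± 1.29 in MRL-IRAK4-KD, 40.7 ± 8.83 in C57BL/6 and 38.3 ± 2.99 in IRAK4-KD mice, so that every MRL mouse was still above the highest other mouse (47.2). Selp kept a higher mean in MRL (0.599 against 0.141 in MRL-IRAK4-KD) but its groups overlapped. Mean Pecam1 was nearly level on this scale, at 50.5 ± 5.39 in MRL, 46.7 ± 13.4 with both mutations, 47.8 ± 5.23 in C57BL/6 and 50.1 ± 5.56 in IRAK4-KD mice. With both mutations the mice were widely spread, from 27.6 in MRL-IRAK4-KD replicate 4 to 59.3. The scaled fit below was not repeated without that library. Vcam1, whose mean CPM was highest in MRL, was not highest there on this scale. It was at 88.8 ± 8.89 in MRL (76.8 to 96.9) and 90.5 ± 19.5 in MRL-IRAK4-KD (65.8 to 109), which did not differ beyond their spread. C57BL/6 mice had 114 ± 11.6 and IRAK4-KD mice 139 ± 10.2. With library sizes scaled to this sum, edgeR gave Vwf 0.97 for MRL against MRL-IRAK4-KD (log2, SE 0.24, adjusted p = 0.0455, where 6.91% of all genes passed adjustment), Selp 2.09 (SE 0.65, adjusted p = 0.0523) and Ackr1 -0.60 (SE 0.19, adjusted p = 0.0588), the 3 members at an unadjusted p below 0.05, beside 29% of all genes in either direction. On that scale Pecam1 stood at 0.11, Icam1 at 0.33, Icam2 at 0.25, Lrg1 at 0.52 and Vcam1 at -0.03. This scaling moved the median of all genes by -0.43, so a gene that followed the hippocampus as a whole would lie near that value.

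**Figure D3:**
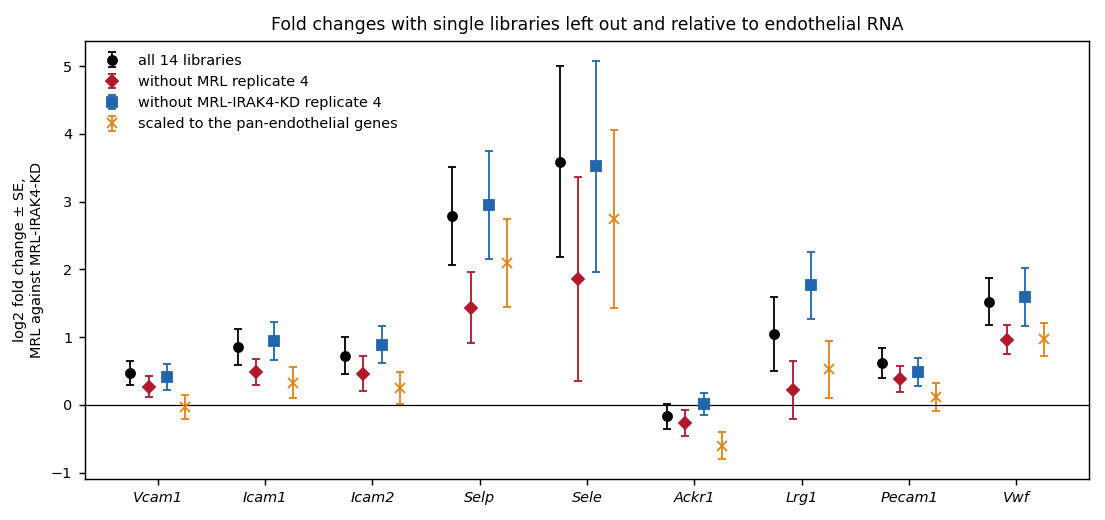
Log2 fold change ± SE of each member for MRL against MRL-IRAK4-KD with all 14 libraries, without MRL replicate 4, without MRL-IRAK4-KD replicate 4, and scaled to the pan-endothelial genes. Vwf stays above 0 in all of those shown (1.52 as fitted, 0.96 without MRL replicate 4, 0.97 when scaled), while Vcam1 reaches -0.03 when scaled.

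The comparison of MRL with C57BL/6 asks what the lupus-prone background changed with IRAK4 intact. Against C57BL/6 7 of 9 members were higher in MRL at an unadjusted p below 0.05, beside 3.16% of all genes tested. By edgeR none passed adjustment, and neither did any other gene (0%). The same MRL mice enter this comparison and the first, so the values below are not independent of those above. Vwf differed by 1.67 (log2, SE 0.38, 3.18-fold, adjusted p = 0.547, edgeR), Icam1 by 1.06 (SE 0.29, 2.09-fold, adjusted p = 0.581), Icam2 by 1.07 (SE 0.31, 2.1-fold, adjusted p = 0.624) and Lrg1 by 2.06 (SE 0.62, 4.16-fold, adjusted p = 0.680). Pecam1 stood at 0.75 (SE 0.24, adjusted p = 0.719), Sele at 4.65 (SE 1.71, adjusted p = 0.854) and Selp at 2.03 (SE 0.78, adjusted p = 0.875). Vcam1, at 0.30 (SE 0.20), and Ackr1, at -0.01 (SE 0.20), did not pass the unadjusted threshold.

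For 6 members every MRL mouse was above every C57BL/6 mouse (Icam1, Icam2, Sele, Lrg1, Pecam1 and Vwf), beside 4.47% of all genes. Group means were 2.33 ± 2.11 CPM (n = 4) against 0.561 ± 0.0486 CPM (n = 3) for Lrg1, and 2.33 ± 0.909 against 1.11 ± 0.153 CPM for Icam2 (SD). DESeq2 called Vwf (adjusted p = 0.00466), Icam1 and Lrg1 (adjusted p = 0.0460 each) among 197 genes, while limma-voom called 0 members among 38 genes. Without MRL replicate 4, 5 of 9 members passed at an unadjusted p below 0.05, beside 2.57% of all genes higher in MRL in that fit, with Vwf at 1.11, Lrg1 at 1.2, Icam2 at 0.80, Icam1 at 0.68 and Pecam1 at 0.51. Selp, at 0.67 (SE 0.56), and Sele, at 2.94 (SE 1.76), lost the unadjusted call there. Selp also lost it by limma-voom (0.95), and both lost it with the replicate block (0.98 and 3.13). Leaving out single C57BL/6 mice cost the call too, for Selp without replicate 1 (1.92) or 3 (1.95), and for Sele without replicate 2 (4.14). The pan-endothelial genes stood at a median of 0.79 here, with 14 of 20 higher in MRL, beside 3.16% of all genes. Without MRL replicate 4 the count was 10, beside 2.57%. Scaled to those genes, Vwf (0.93), Lrg1 (1.26) and Sele (3.77) kept an unadjusted p below 0.05, Icam1 (0.35), Icam2 (0.39), Pecam1 (0.08) and Selp (1.16) did not, and Ackr1 passed as lower (-0.65), beside 37.8% of all genes in either direction, and 0 members passed adjustment, where 0.0762% of genes did.

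The comparison of IRAK4-KD with C57BL/6 asks, by the labels, what the mutation did without lpr, but the library labelled IRAK4-KD replicate 3 had the Fas transcripts of lpr mice. Here 0 of 9 members passed, at an unadjusted p by edgeR, DESeq2 or limma-voom, where 3.8% of all genes passed in either direction and 56 genes (0.147%) passed adjustment by edgeR. Means were lower in IRAK4-KD mice for 7 members, among them Vwf (6.67 ± 0.729 against 10.1 ± 2.77 CPM, -0.61 on the log2 scale, SE 0.39) and Pecam1 (8.71 ± 1.09 against 11.8 ± 1.96 CPM, -0.44, SE 0.25), SD with n = 3 each. Without that library 0 of 9 passed by edgeR (2.68% of all genes in either direction), with Vwf at -0.52 (SE 0.46) and Pecam1 at -0.45 (SE 0.30). Of the pan-endothelial genes 11 of 20 were lower in IRAK4-KD, beside 2.13% of all genes, at a median of -0.49, and without the same library that count was 6.

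On the lpr background with mutated IRAK4, MRL-IRAK4-KD against IRAK4-KD, 3 of 9 members were higher in MRL-IRAK4-KD at an unadjusted p below 0.05, beside 5.18% of all genes tested, and none passed adjustment, where 28 genes (0.0735%) did. They were Icam2 (0.76 on the log2 scale, SE 0.30), Lrg1 (1.46, SE 0.61) and Pecam1 (0.57, SE 0.24), each with adjusted p = 0.553 by edgeR. Vwf, at 0.75 (SE 0.37), and Icam2 did not overlap between these groups, beside 4.31% of all genes. Both doubtful libraries sit in this comparison: without MRL-IRAK4-KD replicate 4 only Pecam1 passed (0.71, beside 4.19% of all genes) and Lrg1 stood at 0.76, and without the library labelled IRAK4-KD replicate 3 there were 0 of 9 (2.2% of all genes), with Icam2 at 0.57, Pecam1 at 0.58 and Lrg1 at 1.31. The pan-endothelial genes stood at a median of 0.59, with 16 of 20 higher in MRL-IRAK4-KD, which became 18 without MRL-IRAK4-KD replicate 4 and 11 (median 0.50) without the library labelled IRAK4-KD replicate 3.

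The difference between the lpr effects with intact and with mutated IRAK4 was tested as an interaction. Selp alone passed at an unadjusted p below 0.05, with 2.37 on the log2 scale (SE 1.07, adjusted p = 0.914, edgeR), beside 1.94% of all genes with a positive interaction, and 1 gene (0.00263%) that was no member passed adjustment. No member passed without MRL replicate 4, without MRL-IRAK4-KD replicate 1 or 2, without any of the 3 C57BL/6 mice, or without IRAK4-KD replicate 2 or 3. Sele stood at 4.33 (SE 2.20), Vwf at 0.92 (SE 0.52), Icam1 at 0.64 (SE 0.40) and Lrg1 at 0.59. Icam2, at 0.31, Vcam1, at 0.25, Pecam1, at 0.18, and Ackr1, at 0.05, were smaller. So for Vwf the difference of 1.67 in MRL against C57BL/6 was not shown to be larger than the 0.75 in MRL-IRAK4-KD against IRAK4-KD.

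Partners of the members were read from lists of genes with known roles. The leukocyte counter-receptors are the integrins and ligands that bind the members, and 4 of 12 were higher in MRL than in MRL-IRAK4-KD at an unadjusted p below 0.05 and 0 lower (median 0.35). Itgam, the alpha chain of Mac-1 that microglia also carry, stood at 0.61 (SE 0.23), Itgal, the alpha chain of LFA-1, at 0.96 (SE 0.38), and Itgb2, their common beta chain, at 0.37 (SE 0.15), each with adjusted p = 0.437 by edgeR. Itgam was at 26.0 ± 3.70 CPM in MRL, 17.1 ± 6.19 (7.90 to 20.9) in MRL-IRAK4-KD and 19.7 ± 1.69 in C57BL/6 mice. Itgal was at 0.882 ± 0.416 CPM in MRL against 0.453 ± 0.182 CPM in MRL-IRAK4-KD mice, and 2 of 12 genes passed without MRL replicate 4. Of 17 other adhesion and transmigration genes 6 were higher and 0 lower (median 0.24), among them the sialomucins Cd34 (0.63) and Podxl (0.77) and the junction protein Esam (0.57), and 2 of 17 without MRL replicate 4. Esam and Cdh5, both among those 6, are also on the pan-endothelial list and were counted there.

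Genes that cytokines induce in endothelium gave 10 of 20 higher in MRL and 0 lower (median 0.53), and 7 without MRL replicate 4. Ch25h, the cholesterol 25-hydroxylase, was higher in MRL by the adjusted test (3.37 on the log2 scale, SE 0.55, adjusted p = 0.0371, edgeR), with 0.447 to 2.25 CPM in MRL against 0.0483 to 0.147 CPM in MRL-IRAK4-KD mice, groups that do not overlap. It kept that call in 4 of the 14 fits that left out 1 library, those without MRL replicate 1, 3 or 4 or MRL-IRAK4-KD replicate 4, with adjusted p = 0.0221 to 0.155 and a difference of 2.51 to 3.70. The chemokine Cxcl10 stood at 1.78 (SE 0.45, adjusted p = 0.321), with 0.593 to 1.95 against 0.203 to 0.581 CPM, and the TNF receptor Tnfrsf1b at 0.49. Against C57BL/6 4 of these 20 genes were higher in MRL, beside 3.16% of all genes. Without MRL-IRAK4-KD replicate 4, which enters only the shared spread, 8 were higher and 1 lower. The share of all genes in that fit is not reported here. For MRL-IRAK4-KD against IRAK4-KD 0 of the 20 passed in either direction, with a median of -0.01.

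Genes of the gp130 and STAT3 pathway, which endothelium uses to answer interleukin-6 type cytokines, gave 5 of 12 higher and 1 lower in MRL (median 0.27). The feedback inhibitor Socs3 stood at 1.52 (SE 0.37, adjusted p = 0.320), Bcl3 at 1.41 and Junb, which neurons also induce, at 1.22. Genes of veins and Weibel-Palade bodies other than the members gave 3 of 10 higher and 0 lower (median 0.28), among them Igfbp7 (0.63) and Ephb4 (0.67). None of these 2 lists had a gene past the adjusted test in any of the 5 comparisons.

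**Figure D4:**
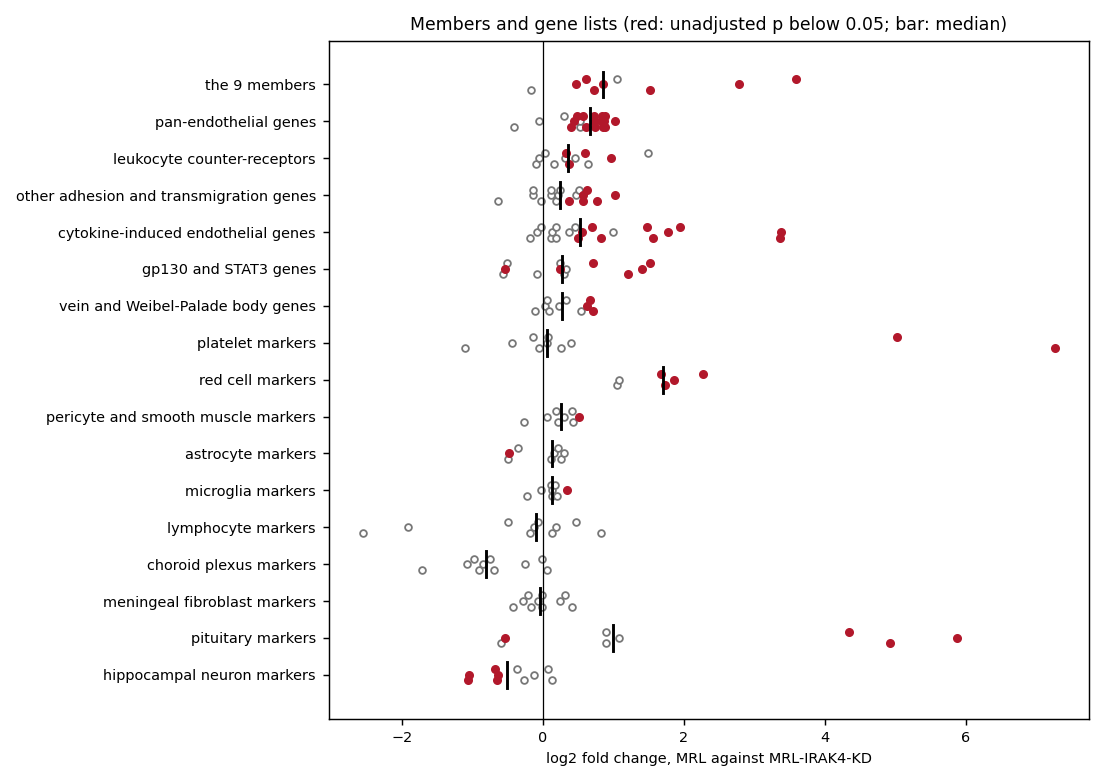
Log2 fold change of every gene of the 9 members and of each of the 16 lists for MRL against MRL-IRAK4-KD, with 1 row for each list; red points had an unadjusted p below 0.05 (edgeR), open points did not, and the bar is the median. Pan-endothelial genes lie mostly to the right of 0 (median 0.67, 15 of 20 red), as do red cell markers (median 1.71), while 5 of 10 hippocampal neuron markers are red to the left of 0.

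Markers of other cells that could carry the members differed in part between the groups. Red cell markers were higher in MRL for 4 of 6 genes and lower for 0 (median 1.71), or 6 of 6 without MRL-IRAK4-KD replicate 4, with a summed level of 84.0 to 370 CPM in MRL, 53.1 to 193 in MRL-IRAK4-KD, 43.7 to 93.7 in C57BL/6 and 20.0 to 55.8 CPM in IRAK4-KD mice, and 6 of 6 were higher in MRL than in C57BL/6, or 4 without MRL replicate 4. The globin Hbb-bs stood at 1.68 for MRL against MRL-IRAK4-KD, Hbb-bt at 1.86 and Alas2, of haem synthesis, at 1.73. Of 10 platelet markers 2 were higher and 0 lower (median 0.07), and their sum was 5.89 to 7.30 CPM in MRL against 5.0 to 16.9 CPM in MRL-IRAK4-KD mice. The chemokine Ppbp was at 0.0148 to 0.510 CPM in MRL and at most 0.0206 in MRL-IRAK4-KD mice, and Tubb1 was at 0.0236 to 0.0836 CPM in MRL and at 0 in all 4 MRL-IRAK4-KD libraries. The part of blood cells in the Vwf, Selp and Ackr1 values was not tested.

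For the same comparison the counts of the remaining markers varied between lists. Pericyte and smooth muscle markers gave 1 of 8 higher (Rgs5, 0.52), microglia markers 1 of 8 higher, astrocyte markers 1 of 8 lower (Sox9, -0.47), and lymphocyte, choroid plexus and meningeal fibroblast markers 0 of 10 each, with medians of 0.26, 0.13, 0.14, -0.10, -0.80 and -0.04. Without MRL-IRAK4-KD replicate 4 the microglia count was 6 of 8 higher (median 0.27). Sox9 was at 43.0 to 96.3 CPM in MRL-IRAK4-KD mice, highest in replicate 4, against 39.6 to 48.1 CPM in MRL. Rgs5 was at 32.8 to 87.4 against 94.5 to 99.3 CPM. Summed choroid plexus markers were 7824 CPM in MRL-IRAK4-KD replicate 4 and 158.6 to 1869.8 CPM in the rest of that group. Counts of the pericyte, astrocyte and choroid plexus lists without that library are not reported here. Pituitary markers gave 3 of 8 higher, among them Prl (5.88) and Gh (4.93), and 1 lower (Tshb, -0.53), at a median of 0.99, and their sum reached 87.2 CPM in MRL replicate 3 and at most 6.30 CPM elsewhere. Hippocampal neuron markers gave 5 of 10 lower in MRL, with Grik4 at -0.68, Spink8 at -1.04 and Fibcd1 at -0.64, and a median of -0.50, or 3 of 10 without MRL-IRAK4-KD replicate 4. Summed lymphocyte markers were low, at 17.4 to 27.2 CPM in MRL against 16.8 to 23.6 CPM in MRL-IRAK4-KD mice, and Ms4a1, which marks B cells, was at 0 in 5 of the 14 libraries.

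The transcript counts, which add up to the gene counts in every library, show which form of a member was counted. Vwf-203 held at least 97.6% of the Vwf counts and Vcam1-201 held 93.0% to 97.7% of the Vcam1 counts. Sele has a single transcript. Pecam1 was divided among several coding transcripts, and MRL-IRAK4-KD replicate 4 differed from all other libraries: its retained-intron transcript Pecam1-208 held 853 of 2798 counts (30.5%), against 1.46% to 6.33% elsewhere. Pecam1-202, at 39.9% to 41.3% in the other MRL-IRAK4-KD mice, held 62 counts (2.22%) there. That library also had the lowest Pecam1 level of its group (9.01 CPM). In C57BL/6 replicate 3 all 24 Selp counts were assigned to noncoding transcripts and none to the coding one.

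**Figure D5:**
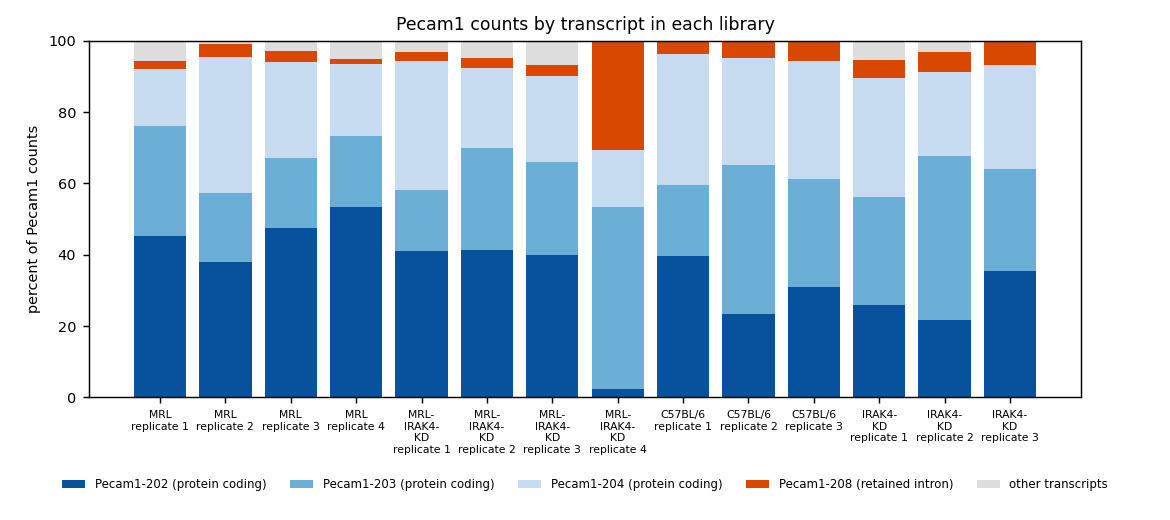
Percent of the Pecam1 counts held by each transcript in each of the 14 libraries, as stacked bars. The retained-intron transcript Pecam1-208 takes 30.5% in MRL-IRAK4-KD replicate 4 and at most 6.33% in the others.

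Each member was set beside the genes whose level followed it most closely over the 14 libraries, among 13759 genes with a mean of at least 1 CPM (Pearson's r of log2(CPM + 0.1), a description with no test, since the libraries share groups and MRL replicate 4 is extreme). Vwf was followed by Tgm2, a transglutaminase (r = 0.983), the class I MHC gene H2-D1 (0.963) and Parp14 (0.962), and Tgm2 kept an r of 0.973 without MRL replicate 4. Icam1 was followed by Ube2l6 (0.961), H2-D1 (0.958) and H2-K1 (0.946), genes known to respond to interferon. Lrg1 was followed by Ifitm3 (0.962), Ly6c1 (0.957) and Ly6a (0.956).

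Interferon-inducible GTPases (Gbp2, Gbp7 and Iigp1) were among the genes nearest to the selectins. Selp was followed by Gbp7 (0.948), Iigp1 (0.939) and Apobec3 (0.936), and Sele by Gbp2 (0.937), Iigp1 (0.934) and Gbp7 (0.920). These rested on MRL replicate 4: without it r was 0.635, 0.492 and 0.721 for Selp and 0.508, 0.406 and 0.411 for Sele. Icam2 was followed by Mmrn2 (0.963), Lsr (0.962) and Slfn5 (0.956), and Pecam1 by Fgd5 (0.956), Adgrl4 (0.956) and the endothelial junction gene Esam (0.948). Vcam1 was followed by Atp10a (0.933), Fn1 (0.932) and Flvcr2 (0.919), and Ackr1 by Rad51c (0.897), Cdk3-ps (0.872) and Ap1g2 (0.865).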

How the data were processed

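Hippocampal RNA of 14 mice in 4 groups was sequenced. According to the submitters' processing notes, reads were aligned to mm10 with HISAT2 2.1.0, sorted with SAMtools 1.9 and counted with StringTie 2.1.0, and R 4.0.5 with DESeq2 1.30.1 followed. The authors deposited raw counts per gene and per transcript. StringTie works counts out from read coverage by way of a set read length, and totals were 1.40 to 2.08 counts for each read on the sequencing sheet, so small counts overstate the reads behind them. The study's methods and the deposited record differ on library kit and read type. The annotation is not named, and all 55536 Ensembl identifiers matched GENCODE M21; they held 99.931% of the counts of 81881 features, and other features were left out.

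Groups came from the sample labels, and the labels' replicates are separate mice. Genes with at least 10 counts over all libraries were fitted in 1 model of 4 groups with edgeR 4.0.16 (R 4.3.3, quasi-likelihood F test, robust, TMM), with Benjamini-Hochberg adjustment over 38070 genes and a threshold of 0.05 for p and adjusted p. The 5 comparisons were 4 pairs and their interaction. Levels are CPM from the TMM-scaled library sizes, and the code was tested on simulated data. Alternatives were DESeq2 1.42.0, limma-voom, other scalings, filters and sample sets, and each library left out. The limma-voom fit (limma 3.58.1) gave each library a quality weight throughout. The 9 members and 16 gene lists were chosen with earlier results of these data known. All members are named; from each list, any gene past the adjusted test in a comparison and up to 3 with the smallest unadjusted p below 0.05 for MRL against MRL-IRAK4-KD, and for each member the 3 genes nearest in pattern, unnamed gene models aside. Values on single genes not named by this rule (Irak4, Fas, Cadm3, Cdh5, Ms4a1) are checks added after the data were seen, and values of a few list genes are not reported here.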

Additional observations from a re-analysis of the deposited data

Results flagged for a closer look

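In groups of 4 mice the highest or lowest mouse was compared with the rest by its gap to the nearest mouse over the range of the group, against Dixon's 95% critical value. This was done for 18 combinations of a member and a group, and 7 passed. The 18 are not independent, since they come from the same mice and all 7 came from 2 libraries. The 7 are therefore a description and are not set against a rate by chance. The MRL mouse that stood apart was replicate 4 each time: Icam1 at 6.60 CPM, Selp at 0.771 CPM, Sele at 0.587 CPM, Lrg1 at 5.49 CPM and Pecam1 at 29.4 CPM. In the MRL-IRAK4-KD group it was again replicate 4, with Ackr1 at 48.0 CPM and Lrg1 at 2.45 CPM. The 2 libraries are unlike in other respects: MRL replicate 4 had a summed pan-endothelial level of 511 CPM, and MRL-IRAK4-KD replicate 4 had 326 CPM with choroid plexus markers at 7824 CPM.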

How the results depend on the processing

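Of the member fold changes recomputed under the alternatives, 1032 kept their direction and their side of the adjusted threshold, 7 newly passed it in the same direction and 32 reversed, 1 of which also passed (Vcam1 for MRL-IRAK4-KD against IRAK4-KD when scaled). Causes were not tested. The count of members past the adjusted test, 0 in each comparison, became 2 by DESeq2 and 1 when scaled to the pan-endothelial genes for MRL against MRL-IRAK4-KD, 3 by DESeq2 for MRL against C57BL/6, and 2 when scaled for MRL-IRAK4-KD against IRAK4-KD (Vcam1 at -0.61, adjusted p = 0.0280, and Ackr1 at -0.77, adjusted p = 0.0231). Scaling shifted the median of all genes by -0.43, -0.61, 0.49 and -0.67 in the 4 pairs, and other normalizations by at most 0.06 in size. At an unadjusted p below 0.05 scaling gave 3 members for MRL against MRL-IRAK4-KD, 4 for MRL against C57BL/6, 1 for IRAK4-KD against C57BL/6 and 2 for the interaction. For IRAK4-KD against C57BL/6 the fit of only those groups gave 2. For MRL-IRAK4-KD against IRAK4-KD limma-voom gave 1, beside 4760 of all genes in either direction. The fit without MRL-IRAK4-KD replicate 4 and IRAK4-KD replicate 3, which was chosen after seeing the data, also gave 1. For the interaction DESeq2 gave 2, beside 1472 of all genes, limma-voom 0, beside 3004, and the fit without both libraries 0. Some fits in this paragraph have no share of all genes reported here or above. Their counts at an unadjusted p describe the fit only. Leaving out each library in turn gave 3 to 8, 5 to 8, 0 to 1, 0 to 5 and 0 to 2 members at an unadjusted p for the 5 comparisons, and 0 to 0 after adjustment. The 5 in that range came without MRL replicate 4, which is not in that comparison but enters the shared spread.

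The replicate block gave 7 members for MRL against MRL-IRAK4-KD, 5 for MRL against C57BL/6, 1 for IRAK4-KD against C57BL/6, 2 for MRL-IRAK4-KD against IRAK4-KD and 0 for the interaction, with 0 after adjustment, and Sele at -0.92 for MRL-IRAK4-KD against IRAK4-KD. The share of all genes called with the block is not reported here, so these counts describe that fit only. Deviations of same-numbered mice correlated at 0.29, -0.10, -0.06 and 0.06 for MRL and MRL-IRAK4-KD, and 2 of 4 MRL libraries were nearest to their own number. For MRL-IRAK4-KD and IRAK4-KD they correlated at -0.25, -0.0002 and 0.37. So few pairs cannot tell whether same-numbered mice share more than a number, and the main fit did not pair them.

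The values that reversed follow. Scaled, those of the genes reported here were Vcam1 -0.027 and Itgb2 -0.10 for MRL against MRL-IRAK4-KD, Vcam1 -0.36 for MRL against C57BL/6, Vcam1 0.28, Icam1 0.27, Icam2 0.080, Selp 0.084, Lrg1 0.044 and Pecam1 0.069 for IRAK4-KD against C57BL/6, and Vcam1 -0.61, Icam1 -0.25, Sele -0.17 and Pecam1 -0.10 for MRL-IRAK4-KD against IRAK4-KD, where limma-voom gave Sele -0.92. Ackr1 for MRL against MRL-IRAK4-KD was 0.0077 by limma-voom. With libraries left out Ackr1 ranged from -0.26 to 0.013 there, from -0.11 to 0.14 for MRL against C57BL/6, from -0.36 to 0.086 for MRL-IRAK4-KD against IRAK4-KD and from -0.094 to 0.35 for the interaction. Sele ranged from -0.84 to 1.53 for IRAK4-KD against C57BL/6 and from -1.62 to 1.91 for MRL-IRAK4-KD against IRAK4-KD, where Vcam1 ranged from -0.043 to 0.18. For the interaction Lrg1 ranged from -0.24 to 1.45 and Pecam1 from -0.060 to 0.31, the negative values both without MRL replicate 4. The planned sum of transcript counts per gene was not run as a separate fit, since it equals the gene counts in every library. Depth limits Selp and Sele, whose counts were below 100 in every mouse but MRL replicate 4.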
